A study of Mus musculus with 16 samples.

Results

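The genes described here are 35 endoplasmic reticulum (ER) chaperone and unfolded protein response genes, chosen by symbol from the 56691 genes of a single-cell count matrix of 637 light zone (LZ) germinal center B cells. The rule uses symbols only. The 35 fall into 11 lumenal chaperones and their partners, 5 genes of oxidative folding, 5 genes of ER-associated degradation (ERAD), 5 sensors and transcription factors, and 9 genes of protein translocation and processing. All 35 were in the matrix with counts.

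The cells came from lymph nodes of immunized mice that had received B1-8hi BTKC481S and B1-8hi BTKWT B cells together, and single LZ cells were sorted and sequenced by SMART-Seq2, a plate method that reads along the whole transcript. B1-8hi B cells carry a knock-in heavy chain and bind the hapten NP with high affinity, and BTKC481S lacks the cysteine that acalabrutinib, an inhibitor of Bruton's tyrosine kinase, binds. The 16 labelled samples are the 2 genotypes in 8 hosts, of which 5 were given acalabrutinib by mouth (A7, A8, A10, A11 and A12, 381 cells) and 3 were given vehicle alone (V5, V7 and V9, 256 cells). The cell names carry the host and no genotype, so the BTKC481S and BTKWT cells of a host stand together throughout, a drug effect in BTKWT cells alone would be diluted by the other cells, and the host, with 45 to 130 cells, is the replicate. The paper states that the cells were sorted in 2 independent experiments. The sample labels do not assign hosts to them, so the comparison of acalabrutinib and vehicle hosts held no term for the experiment. The cell names also carry a plate, and no comparison held a term for it.

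Cells held 132412 to 1825420 counts (median 789357) and 1801 to 7224 genes with a count (median 3989). All 8 of 8 B cell markers and 6 of 8 germinal center markers were found in at least 50% of cells, with Cd79a in 99.5%, Pax5 in 95.4% and Bcl6 in 86.5%. Zone markers were mixed. At least 50% of cells had 2 of 5 LZ markers, Cd83 (85.9%) and Cd86 (63.6%). The same held for 3 of 4 dark zone markers, Foxo1 (72.8%), Polh (59.03%) and Cxcr4 (53.4%). The cells are called LZ by their sort, and their zone was not tested from these markers. Of the plasma cell markers, Jchain had counts in 91.2% of cells, Sdc1 (CD138) in 2.35% and Tnfrsf17 (BCMA) in 1.10%. Of the T cell and macrophage markers, 6 of 8 and 5 of 8 had counts in under 5% of cells. The exceptions were Lck (51.6%) and Lat (7.38%) among T cell markers and Adgre1 (38.1%, 4.71% with at least 10 counts), Fcgr3 (18.5%, 1.57%) and Cd68 (9.11%, 8.16%) among macrophage markers. For gene sums over the cells of a host, fewer cells with a transcript and less of it per cell cannot be told apart.

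Secretory and membrane proteins enter the ER through the Sec61 channel, lose their signal peptide and are folded by lumenal chaperones and disulfide isomerases, while those that stay misfolded are sent to the proteasome by ERAD. Misfolded protein is sensed by IRE1 (Ern1), PERK (Eif2ak3) and ATF6, and IRE1 splices the mRNA of XBP1, a transcription factor that induces much of this machinery. XBP1 is needed for the secretory capacity of plasma cells, whose program is also set by IRF4 and BLIMP-1 (Prdm1), so the members were described beside the detection of these 3 factors.

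Promoters of ER chaperone genes are known for the ER stress response element, CCAAT, 9 bases and CCACG, which NF-Y and ATF6 or XBP1 bind. In the RefSeq promoter windows (mouse build GRCm38.p6, the 250 bases before each gene's start, both strands searched), 29 of the 35 members had a window and 9 of these (31%) held the element, against 35 of 27025 genes (0.13%), 1 of 47 other ER genes (2.13%, Derl3) and 0 of 16 cytosolic chaperone genes. The 9 were Hspa5, Hsp90b1 with 2 copies, Calr, Canx, Dnajc3, Creld2, Pdia6, Ero1b and Syvn1. The box that ATF6 or XBP1 contacts, CCACG alone, is common: it was in 23 of 29 members (79.3%) and in 31% of all genes. The second form, ATTGG, 1 base and CCACG, was in Herpud1 and in 10 genes of the table (0.037%). Herpud1 also held TGATGCAA, a site of ATF4 with C/EBP factors found in 248 genes (0.918%), and none of the 29 held TGACGTGG, an XBP1 site found in 163 genes (0.603%). The element was defined on promoters of this kind, so its share here is a description and not a test, and a match is not a measured binding site. The windows below show the element in 3 lumenal chaperones, in an isomerase and in the ERAD gene Syvn1. They show its second form in the ERAD gene Herpud1, and all have 15 bases on each side. Capitals mark the boxes, CCAAT (or ATTGG) and CCACG (or CGTGG on the other strand).
Hspa5, chr2:34772010-34772058, plus strand: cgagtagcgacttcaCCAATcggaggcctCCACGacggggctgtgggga
Hsp90b1, chr10:86705518-86705671, minus strand, both copies: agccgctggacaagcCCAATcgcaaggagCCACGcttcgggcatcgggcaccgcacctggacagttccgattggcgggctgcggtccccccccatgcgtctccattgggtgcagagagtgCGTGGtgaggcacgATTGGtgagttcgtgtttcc
Calr, chr8:84847060-84847108, minus strand: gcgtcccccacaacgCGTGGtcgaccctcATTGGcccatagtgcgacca
Pdia6, chr12:17266476-17266524, plus strand: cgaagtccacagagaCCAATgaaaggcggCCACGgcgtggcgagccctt
Syvn1, chr19:6046517-6046565, plus strand: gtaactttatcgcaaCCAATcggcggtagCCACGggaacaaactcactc
Herpud1, chr8:94386362-94386402, plus strand, second form: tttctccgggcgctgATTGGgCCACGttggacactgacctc

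The members were widely transcribed in these cells. The share of cells with at least 1 count of a gene ran from 6.91% for Ddit3 to 93.2% for Syvn1, with a median over the 35 of 50.5%. With at least 10 counts required, the median was 48.2%, so for most members detection did not rest on single reads. The largest drops, from at least 1 to at least 10 counts, were for Atf6 (69.1% to 51.2% of cells), Hyou1 (33.8% to 17.9%) and Ern1 (20.1% to 7.54%). In all, 33 of 35 members were found in at least 20% of cells and 19 in at least 50%.

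**Figure D1:**
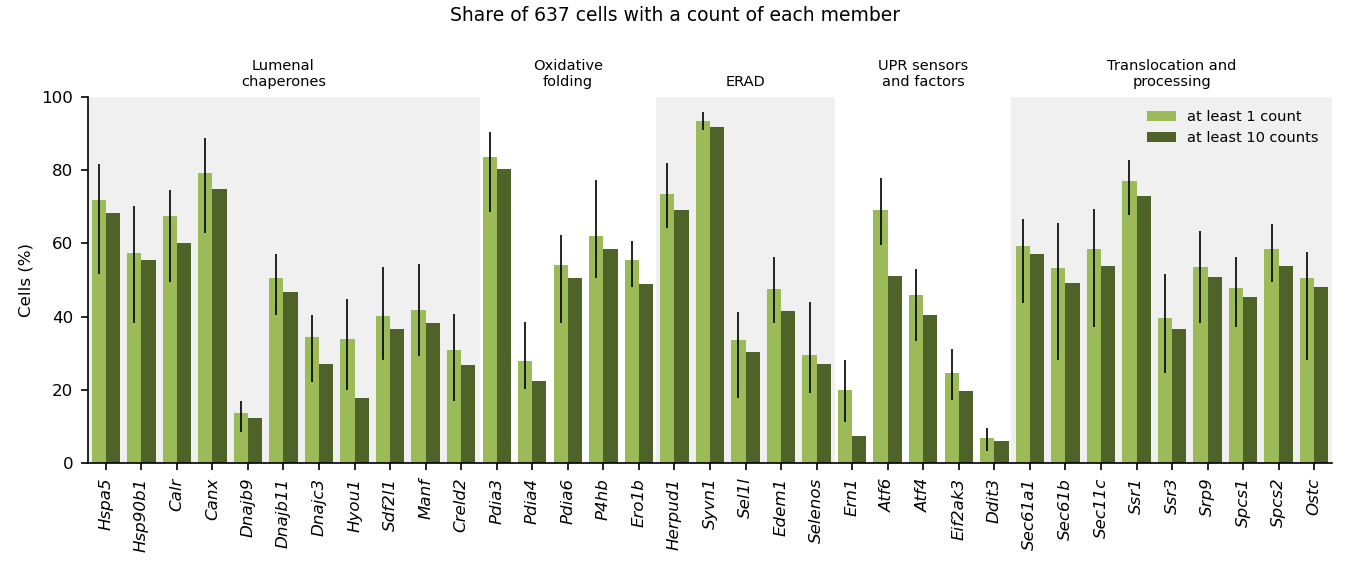
Share of the 637 cells (percent, vertical axis) with at least 1 count (light bars) and at least 10 counts (dark bars) of each of the 35 members, grouped by role. The lines span the lowest and highest host share of cells with at least 1 count. Syvn1 is the most widely and Ddit3 the least widely detected, and the light and dark bars differ most for Atf6, Hyou1 and Ern1.

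Levels are given as CPM (a gene's counts scaled by the total of the host's summed counts), as mean ± SD over the 8 hosts. Hspa5 encodes BiP, the ER HSP70 that holds unfolded chains and keeps the stress sensors inactive. Its level was 507, 426, 656, 759 and 545 CPM in A7, A8, A10, A11 and A12 and 586, 583 and 736 in V5, V7 and V9, with the lowest host, A8, and the highest, A11, both in the acalabrutinib group. Its mean was 599.7 ± 113, and 71.7% of cells had a count (95% Wilson interval 68.1 to 75.1%, counting error only). The host shares ran more widely, from 51.7% in A8 to 81.6% in A11. Hsp90b1, which encodes the ER HSP90 GRP94, was 256 ± 52.9 CPM. The lectin chaperones Calr (calreticulin) and Canx (calnexin), which hold glycoproteins in the folding cycle, were at 280.4 ± 44.1 and 643 ± 99.2 CPM.

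Among the co-chaperones, Dnajb11, an HSP40 partner of BiP, was at 243 ± 22.9 CPM. Dnajc3 was at 109.9 ± 24.2 and Dnajb9, which holds IRE1 inactive together with BiP, at 45.7 ± 11.6 with counts in 13.7% of cells. Sdf2l1, a component of chaperone complexes, was at 123 ± 24.2 CPM, Creld2 at 98.4 ± 29.5, Manf, which binds BiP, at 93.9 ± 17.6 and Hyou1, the nucleotide exchange factor GRP170, at 58.5 ± 23.5. Among genes of disulfide formation, Pdia3, which works with calnexin and calreticulin, was at 634 ± 99.3 CPM and P4hb (PDI) at 406 ± 83.7. Pdia6 was at 307 ± 49.1, the oxidase Ero1b at 217 ± 38.5 and Pdia4 at 126 ± 48.9 with counts in 27.8% of cells.

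In the ERAD group, the ubiquitin ligase Syvn1 (HRD1) was at 516 ± 60.4 CPM and Herpud1, which assembles with it, at 370 ± 46.4. Edem1, which marks glycoproteins for removal, was at 180 ± 38.7, Sel1l, the partner of Syvn1, at 152 ± 51.1 and Selenos at 85.5 ± 21.4. Of the sensors, Atf6 was at 271 ± 36.2 CPM and Eif2ak3 at 63.7 ± 28.2. Ern1 was at 26.4 ± 16.04 CPM, with a host range of 2.80 (V5) to 54.9 (A12) and a median of 1 count in the cells that had it. Atf4, the factor translated when eIF2α is phosphorylated, was at 147 ± 27.3, and its target Ddit3 (CHOP) at 14.2 ± 6.403, the lowest of the 35 in CPM. A second row of the matrix named Ddit3 held 0 counts and was not used. Whether the duplicate entry cost Ddit3 reads was not tested.

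The channel subunit Sec61a1 was at 359 ± 41.6 CPM and Sec61b at 52.4 ± 17.2, although both were found in more than 50% of cells. Ssr1 and Ssr3, subunits of the translocon-associated complex, were at 443 ± 56.1 and 211 ± 47.8. The signal peptidase genes Spcs2, Sec11c and Spcs1 were at 232 ± 20.5, 188 ± 50.7 and 91.5 ± 23.9, the oligosaccharyltransferase gene Ostc at 159 ± 30.4 and Srp9, of the signal recognition particle, at 106 ± 16.5. Relative to the mean, the spread between hosts was smallest for Spcs2 (8.84%) and Dnajb11 (9.44%) and largest for Ddit3 (45.03%) and Ern1 (60.8%). Host A8 was the lowest of the 8 hosts for 19 of 35 members and A11 the highest for 16. A8 also had the lowest median of summed cytosolic chaperones, at 5077 CPM per cell, and A11 the highest, at 7729, with medians of 3604 and 4223 genes per cell where hosts ran from 3432 to 4383. The part of these in the host differences was not tested.

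**Figure D2:**
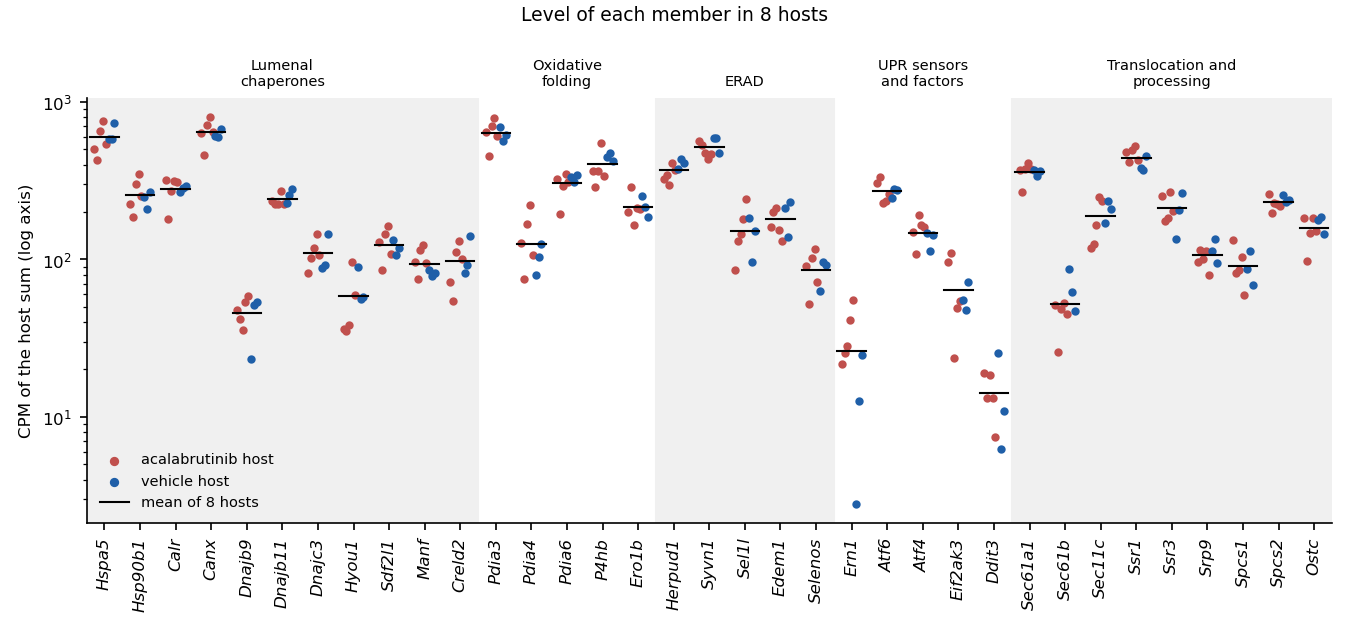
Level of each of the 35 members in each host, in CPM of the host's summed counts on a log axis, grouped by role, with acalabrutinib and vehicle hosts in separate colours. The acalabrutinib and vehicle hosts overlap for every member, and Ern1 has the widest spread, from 2.80 to 54.9 CPM.

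Between genes, levels were compared per kilobase of annotated exons. Pdia3 was the highest, at 202 ± 31.6 CPM per kb, followed by Herpud1 at 159 ± 19.9, P4hb and Hspa5 at 142 ± 29.2 and 142 ± 26.7 and Canx at 137 ± 21.1. At the low end stood Ddit3 at 8.30, Hyou1 at 8.10 and Ern1 at 3.23 ± 1.96 CPM per kb. In this order, all 34 of 34 neighbouring pairs overlapped in mean ± SD, so only distant members can be ranked. The loci of 7 members, Manf, Pdia3, Pdia6, Syvn1, Ddit3, Spcs1 and Spcs2, overlap another coding gene. SMART-Seq2 does not record strand, so reads of a shared stretch cannot be assigned by strand. Whether such reads were lost or added in the counts was not tested.

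No member passed the test between acalabrutinib and vehicle hosts. Of 18016 genes tested by edgeR's quasi-likelihood test, 0 had an adjusted p under 0.05 (0% of genes), 616 had an unadjusted p under 0.05, and of the 35 members 0 passed either. DESeq2 called 94 genes (0.548%) and limma on mean CPM 0, with 0 members in both. The median log2 difference of the members was -0.01, beside 0.02 over all genes, and the ranges of the acalabrutinib and vehicle hosts overlapped for 35 of 35 members. The share of all genes with overlapping ranges was not computed, so this count is a description. Hspa5 was at 579 ± 131 CPM in 5 acalabrutinib hosts and 635 ± 87.2 in 3 vehicle hosts, a log2 difference of -0.15 ± 0.18 (SE).

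On the log2 scale, the other chaperones and isomerases differed between acalabrutinib and vehicle hosts by 0.10 ± 0.20 (Hsp90b1), -0.03 ± 0.19 (Calr), 0.05 ± 0.23 (Sdf2l1), 0.27 ± 0.21 (Manf), 0.15 ± 0.33 (Dnajb9), 0.42 ± 0.31 (Pdia4) and -0.19 ± 0.18 (Pdia6). Herpud1 was at -0.24 ± 0.15 and Sec61b at -0.59 ± 0.33, the lowest of the 35. Among the sensors and factors, Ern1 was at 1.37 ± 0.66, the highest of the 35, Atf6 at 0.03 ± 0.19, Atf4 at 0.18 ± 0.20 and Ddit3 at -0.03 ± 0.72. Xbp1, Irf4 and Prdm1 were at -0.04 ± 0.24, -0.03 ± 0.89 and -0.64 ± 1.56. The SEs of Ddit3, Irf4 and Prdm1 were too wide to limit the size of a difference. Of the other lists, 0 of 57 other ER genes, 0 of 15 integrated stress response genes and 0 of 22 cytosolic chaperones passed the test.

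Cells were placed in G1 (263), S (217) or G2/M (157) by scores of S and G2/M genes that hold none of the members. The 374 cycling cells, S and G2/M together, had more counts per cell than G1 cells (medians 875636.5 and 689733) and more genes (4309.5 and 3500). Calr was lower in cycling cells. In G1 and cycling cells it was at 366 and 269 CPM in A7, 209 and 152 in A8, 379 and 215 in A10, 378 and 287 in A11, 346 and 292 in A12, 293 and 255 in V5, 340 and 248 in V7 and 345 and 270 in V9. It was thus lower in cycling cells in 8 of 8 hosts, although the G1 level of A8 lay below the cycling level of every other host. Its mean fell from 332 ± 56.9 to 249 ± 45.9 CPM, a log2 difference of -0.44 ± 0.09 (SE, edgeR adjusted p = 0.0273, host as a block). The pooled comparison does not separate S from G2/M: the mean over cells was 300.03 CPM in G1, 292 in S and 181 in G2/M (320, 301 and 193 with cells thinned to an equal depth), so S cells lay near G1 cells and G2/M cells lower. S against G1 was not tested separately.

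Calr was the 1 member of 35 that passed this test, beside 477 of 12667 genes (3.77%) in either direction and 149 (1.18%) lower. Of the 35, 7 (20%) had an unadjusted p under 0.05, beside 1771 of all genes (14.0%). They were Calr, Hspa5 (-0.37 ± 0.09, adjusted p = 0.0605 by edgeR, lower in 7 of 8 hosts, with means over cells of 662, 665 and 465.6 CPM in G1, S and G2/M), Ero1b (-0.58 ± 0.23), Syvn1 (-0.31 ± 0.10) and Atf6 (-0.53 ± 0.22) on the lower side and Ssr1 (0.34 ± 0.12) and Spcs2 (0.28 ± 0.13) on the higher side. DESeq2 called 5 members lower, these same lower 5, and 707 genes lower (5.58%), and limma called 746 genes and 0 members. The median over the members was -0.05, beside 0.11 over all genes. By role, the medians were 0.24 for translocation and processing (7 of 9 members positive), -0.03 for lumenal chaperones, -0.24 for oxidative folding, -0.31 for ERAD and -0.64 for the sensors and factors (0 of 5 positive).

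Other named members in cycling against G1 cells were at -0.03 ± 0.17 (Hsp90b1), -0.32 ± 0.30 (Pdia4), -0.24 ± 0.16 (Pdia6), 0.34 ± 0.23 (Sdf2l1), -0.03 ± 0.26 (Manf), 0.43 ± 0.88 (Dnajb9), -0.11 ± 0.13 (Herpud1), -0.09 ± 0.34 (Sec61b), -0.12 ± 0.15 (Atf4), -0.75 ± 1.18 (Ern1) and -1.36 ± 0.99 (Ddit3) on the log2 scale. Xbp1 was at 0.02 ± 0.22, Irf4 at 0.03 ± 1.16 and Prdm1 at -0.86 ± 1.67. Of the cytosolic chaperones, 2 of 22 passed and were higher in cycling cells, Hsp90aa1 (1.16) and the co-chaperone Ptges3 (0.98). Of the integrated stress response genes, 2 of 11 passed and were higher, Psat1 (1.01) and Phgdh (0.66), both of serine synthesis, and 0 of 55 other ER genes passed. B cell and LZ markers moved with the state: the B cell genes Cd79a (-0.30), Cd79b (-0.48), Ebf1 (-0.56), Blnk (-0.38) and Cd37 (-0.36) and the LZ genes Cd83 (-0.81) and Cd86 (-0.82) were lower in cycling cells, and their part in the difference of Calr was not tested. The call of Calr did not hold without A7, A8, A10, A11, A12, V7 or V9 in turn (adjusted p by edgeR 0.0523 to 0.0697), while its difference stayed between -0.48 and -0.39. Without A8, Hspa5 was called lower in its place.

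Within cycling cells, 0 members passed edgeR between G2/M and S cells, beside 46 of 10907 genes (0.422%). Of the 35, 7 (20%) had an unadjusted p under 0.05, beside 792 of all genes (7.26%). DESeq2 called 727 genes (6.67%), among them the isomerases Pdia3 and P4hb lower in G2/M and Sec11c higher, and limma called 96 genes and 0 members. Pdia3 was at 736 ± 141 CPM in S and 516 ± 130 in G2/M cells (log2 difference -0.51 ± 0.15, lower in 7 of 8 hosts). P4hb was at 492 ± 109 and 349 ± 118 (-0.51 ± 0.17, lower in 6 of 8). Sec11c, a catalytic subunit of signal peptidase, was at 170 ± 55.8 and 259 ± 51.6 (0.68 ± 0.21, higher in 7 of 8).

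The median over the members was -0.10, beside -0.03 over all genes, with -0.51 in the oxidative folding group and -0.18 over cytosolic chaperones, of which 0 of 21 passed. Log2 differences between G2/M and S were -0.41 ± 0.16 for Hspa5, -0.13 ± 0.20 for Hsp90b1, -0.72 ± 0.32 for Calr, -0.60 ± 0.23 for Pdia6, -0.49 ± 0.25 for Sdf2l1 and -0.60 ± 0.32 for Manf. Pdia4 (0.50 ± 0.79), Dnajb9 (-0.18 ± 0.98), Herpud1 (0.18 ± 0.21), Sec61b (0.14 ± 0.47), Atf4 (0.31 ± 0.43), Atf6 (-0.19 ± 0.17), Ern1 (0.41 ± 1.71) and Ddit3 (-1.13 ± 1.94) showed no common direction. Xbp1 was at -0.30 ± 0.16 and Irf4 at 1.76 ± 1.85, and Prdm1 was too low to be tested. The summed level of all 35 members per cell had a median of 7441 CPM in G1, 7710 in S and 6646 in G2/M, with the G2/M median below the S median in each of the 8 hosts, and after thinning in 7 of 8, A10 being the exception (6473 in S and 6728 in G2/M). The summed cytosolic chaperones (7105 and 6185 CPM) and other ER genes (7272 and 6346) also had the lower median in G2/M.

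In S cells 32 of 35 members, and in G2/M cells 30 of 35, had counts in a larger share of cells than in G1 (median shares 43.3% in G1, 55.8% in S and 59.2% in G2/M). Mean CPM per cell was higher than in G1 for 21 members in S and 16 in G2/M. Shares follow depth, and with each cell thinned to 459128 counts (573 cells kept) the counts of members were 30 and 29 of 35. Most genes moved the same way. Of all 12432 genes as widely found as the least detected member, 77.5% in S and 79.5% in G2/M had the larger share. After thinning these were 69.9% and 71.6%. Those genes were sparser than the members, with a median share in G1 of 19.0% beside 43.3%, so they are not a matched background. Where share and level disagree, no order is read.

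Whether the change with cycling differed between treatments was tested as an interaction. By edgeR 0 of 12667 genes passed (0%), 379 had an unadjusted p under 0.05, and of the members 0 passed either. DESeq2 called 279 genes lower (2.2%), among them Ern1, and limma called 0 members. Ern1 was at -4.96 ± 2.44 on the log2 scale. In G1 and cycling cells it was at 0.312 and 4.06 CPM in V5 and 0.175 and 21.0 in V7, but at 53.9 and 13.1 in V9 and at 139 and 11.9 in A12. The vehicle hosts thus did not move one way, and Ern1 rested on a few cells a host. The interaction values of the other named members were 0.06 ± 0.20 (Hspa5), 0.13 ± 0.37 (Hsp90b1), -0.13 ± 0.20 (Calr), -0.31 ± 0.64 (Pdia4), 0.32 ± 0.32 (Pdia6), 0.30 ± 0.49 (Sdf2l1), 0.20 ± 0.56 (Manf), -1.88 ± 2.0 (Dnajb9), -0.29 ± 0.27 (Herpud1), 0.78 ± 0.69 (Sec61b), 0.15 ± 0.32 (Atf4), -0.26 ± 0.47 (Atf6) and -0.33 ± 2.09 (Ddit3). Those of Xbp1, Irf4 and Prdm1 were -0.10 ± 0.47, -3.07 ± 2.41 and -5.26 ± 2.88. The median over the members was -0.13, beside -0.03 over all genes.

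Xbp1 had a count in 357 cells (56.0%), Irf4 in 63 (9.89%) and Prdm1 in 40 (6.28%). With at least 10 counts these shares were 52.7%, 8.48% and 2.67%, so many Prdm1 detections were of a few reads. Host levels were 352 ± 80.7 CPM for Xbp1, 35.1 ± 26.2 for Irf4 and 26.5 ± 29.4 for Prdm1. Total Xbp1 counts do not separate the spliced from the unspliced mRNA.

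Most folding genes had higher levels in the sums of cells with Xbp1, none past edgeR's threshold after adjustment, and Sdf2l1 had the smallest p of them. In cells without and with Xbp1 it was at 89.4 and 171 CPM in A7, 67.1 and 121 in A8, 87.2 and 168 in A10, 110.01 and 190.3 in A11, 55.5 and 145 in A12, 56.5 and 187 in V5, 90.4 and 116 in V7 and 77.2 and 142 in V9. It was higher in 8 of 8 hosts, and every Xbp1-detected sum lay above every other sum. The means were 79.2 ± 18.8 and 155 ± 28.3 CPM (log2 difference 0.95 ± 0.18, edgeR adjusted p = 0.999, unadjusted p = 0.000323, DESeq2 adjusted p = 0.000479). The share of all genes whose sums separated in this way was not computed, so the separation of Sdf2l1 is a description.

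Apart from Xbp1, edgeR called 0 of 12672 genes (0%) between these cells, with 496 at an unadjusted p under 0.05, and 0 members passed. Xbp1 itself, which defines the cells, did not pass edgeR without A7, A8, A11, A12, V7 or V9 in turn, or in G1 or cycling cells alone. That 0 members passed thus does not show that the members did not differ. Of the members, 11 had an unadjusted p under 0.05, all higher with Xbp1. DESeq2 called 248 genes higher (1.96%), of which 2 were members, Sdf2l1 and Dnajb11, and limma called 1 gene and 0 members. Dnajb11 was at 188 ± 58.3 and 289 ± 45.3 CPM (0.64 ± 0.19, higher in 8 of 8 hosts). Pdia3 (554 ± 114 and 701 ± 67.3 CPM, 0.33 ± 0.10) and Sec61a1 (296 ± 30.6 and 402 ± 67.4 CPM, 0.40 ± 0.11) were also higher in 8 of 8 hosts, and Sel1l (0.61 ± 0.21) too.

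The members' median log2 difference with Xbp1 was 0.29 and 29 of 35 were positive, beside a median of 0.09 with 56.8% positive over all genes. It was 0.26 over the other ER genes and 0.18 over cytosolic chaperones. All 11 of 11 lumenal chaperones and 5 of 5 oxidative folding genes were positive, and the sensors and factors had a median of -0.20. Named members were at 0.35 ± 0.13 (Hspa5), 0.40 ± 0.21 (Hsp90b1), 0.42 ± 0.13 (Calr), 0.95 ± 0.38 (Pdia4), 0.53 ± 0.16 (Pdia6), 0.00 ± 0.20 (Manf), 0.03 ± 0.50 (Dnajb9), 0.16 ± 0.12 (Herpud1), 0.36 ± 0.31 (Sec61b), -0.20 ± 0.19 (Atf4), 0.58 ± 0.29 (Atf6), -1.37 ± 0.88 (Ern1) and 2.85 ± 1.63 (Ddit3). Irf4 was at 0.53 ± 1.30, and Prdm1 was too low to be tested. Xbp1-detected cells were deeper (median 845806 against 748491 counts) and had more genes detected (medians 4153 and 3799). In them 34 of 35 members had a larger share of cells with a count, and 33 after thinning. Of all 12432 genes as widely found as the least detected member, 74.1% also had the larger share (69.4% after thinning).

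**Figure D3:**
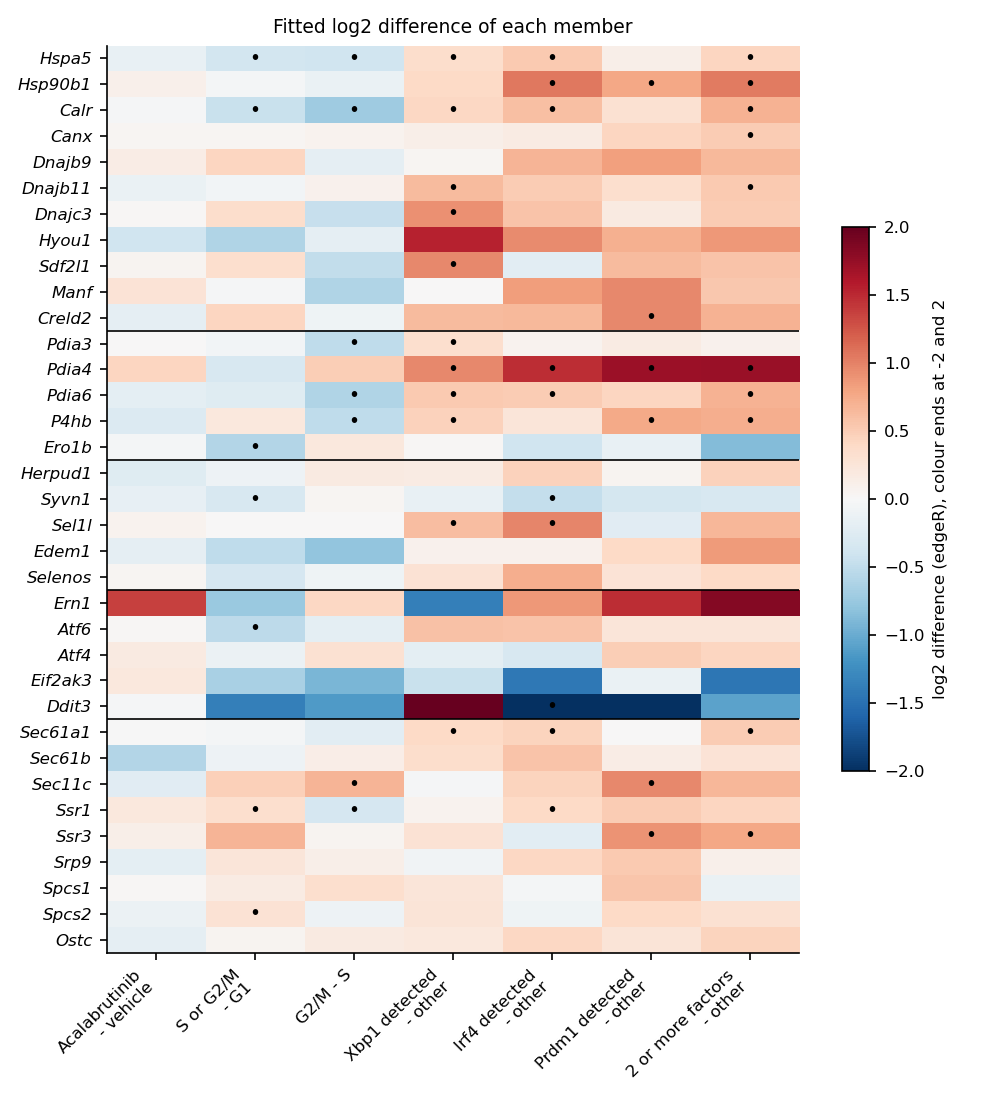
Fitted log2 difference of each of the 35 members (rows, by role) in 7 comparisons (columns), with colour ending at -2 and 2 and a dot where the unadjusted p of edgeR was under 0.05. The Xbp1, Irf4, Prdm1 and combined columns are mostly on the higher side, the acalabrutinib column holds no dot, and in the G1 comparison the called member is Calr at -0.44.

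Irf4-detected cells were compared in the 4 hosts with at least 5 of them (A11, A12, V7 and V9, 50 cells). Hsp90b1 was at 326 and 537 CPM in cells without and with Irf4 in A11, 227 and 392 in A12, 165 and 576 in V7 and 238 and 435 in V9. It was higher in 4 of 4 hosts, and its ranges did not overlap. The means were 239 ± 66.2 and 485 ± 85.7 CPM (1.06 ± 0.21, edgeR adjusted p = 0.527, DESeq2 adjusted p = 0.0175). How many of all genes had ranges apart here was not computed, so the separation of Hsp90b1 is a description. Ddit3 was lower, at 10.8 ± 3.63 and 0.636 ± 0.762 CPM, with 0 counts in the Irf4-detected cells of V7. Its fitted difference, -5.24 ± 1.97, rests on a gene found in 6.35% of Irf4-detected and 6.97% of other cells and so depends on few cells.

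By edgeR 0 of 13730 genes passed in this comparison (0%), 1047 had an unadjusted p under 0.05, and Irf4 itself, which defines the cells, had an adjusted p of 0.527 by edgeR and did not pass either. Of the members 0 passed and 10 had an unadjusted p under 0.05, 8 of them higher. DESeq2 called 1444 genes (10.5%), among them Hsp90b1 and Hyou1 higher and Ddit3 lower, and limma called 0 members. The members' median was 0.45, beside -0.63 over all genes, 0.20 over cytosolic chaperones and 0.27 over other ER genes. The cause of the negative median of all genes, from sums of few cells against many, was not tested, and in limma on mean CPM it was -0.48 here, -0.39 with Prdm1 and -0.33 with at least 2 factors. Without the replicate block by edgeR, the all-gene medians were -0.03, -0.16 and -0.00 and those of the members 0.50, 0.43 and 0.53 in the same comparisons, so the distance between members and all genes depends on the block. The other named members were at 0.52 ± 0.12 (Hspa5), 0.60 ± 0.17 (Calr), 1.48 ± 0.47 (Pdia4), 0.50 ± 0.17 (Pdia6), -0.22 ± 0.39 (Sdf2l1), 0.84 ± 0.58 (Manf), 0.68 ± 2.13 (Dnajb9), 0.45 ± 0.21 (Herpud1), 0.56 ± 0.62 (Sec61b), -0.32 ± 0.70 (Atf4), 0.58 ± 0.34 (Atf6) and 0.87 ± 1.20 (Ern1). Xbp1 was at 0.34 ± 0.25 and Prdm1 at 2.58 ± 2.61.

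Prdm1-detected cells could be compared in 2 hosts only, A11 and V9, with 21 cells and 1 residual degree of freedom. Pdia4, a disulfide isomerase of the lumen, was at 190 and 465 CPM in cells without and with Prdm1 in A11 and at 101 and 420 in V9 (1.71 ± 0.30, higher in 2 of 2 hosts). By edgeR 0 of 16647 genes passed (0%), 423 had an unadjusted p under 0.05, and 0 members passed, with 6 at an unadjusted p under 0.05, all higher. These were Hsp90b1 (0.77 ± 0.25), Creld2 (0.96 ± 0.33), Pdia4, P4hb (0.76 ± 0.20), Sec11c (0.96 ± 0.25) and Ssr3 (0.90 ± 0.24). DESeq2 called 790 genes higher (4.75%), 14 of them members, and limma called 0 members. The median was 0.41 with 30 of 35 positive, beside -0.60 over all genes, 0.14 over cytosolic chaperones and 0.43 over other ER genes.

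In the same cells Hspa5 was at 0.12 ± 0.23, Calr at 0.30 ± 0.24, Pdia6 at 0.43 ± 0.24, Sdf2l1 at 0.63 ± 0.34, Manf at 0.96 ± 0.39, Dnajb9 at 0.83 ± 0.71, Herpud1 at 0.05 ± 0.25, Sec61b at 0.15 ± 0.91, Atf4 at 0.49 ± 0.35, Atf6 at 0.24 ± 0.27, Ern1 at 1.47 ± 0.93 and Ddit3 at -2.22 ± 5.21. Xbp1 was at 1.22 ± 0.21 and Irf4 at 2.08 ± 0.54. Of the plasma cell markers other than Prdm1, 8 of 9 were positive with a median of 1.63, and their part in the values of the members was not tested.

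Cells with at least 2 of the 3 factors numbered 60 (9.42%), of which 43 in A11, A12 and V9 were compared. Pdia4 was at 172 and 495 CPM in A11, 72.0 and 332 in A12 and 106.96 and 254 in V9, in other cells and in these. Hsp90b1 was at 321 and 511, 213 and 526.1, and 241 and 461 CPM in the same hosts. Both were higher in 3 of 3 hosts without overlap between the states, with log2 differences of 1.73 ± 0.28 and 1.04 ± 0.20 (edgeR adjusted p = 0.600 for each, DESeq2 adjusted p = 4.1e-05 and 0.00102). The share of all genes without overlap was not computed for these hosts, so the lack of overlap is a description.

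By edgeR 0 of 15414 genes passed (0%), 1238 had an unadjusted p under 0.05, and 0 members passed, with 10 at an unadjusted p under 0.05, all higher. DESeq2 called 148 genes higher (1.06%), of which 6 were members, Pdia4, Hsp90b1, P4hb, Calr, Canx and Sec61a1, and limma called 0 members. The median over the members was 0.51 with 30 of 35 positive, beside -0.44 over all genes and 0.19 over cytosolic chaperones, and equal to the 0.51 over other ER genes (48 of 57 positive). Named members were at 0.43 ± 0.16 (Hspa5), 0.69 ± 0.18 (Calr), 0.70 ± 0.22 (Pdia6), 0.56 ± 0.27 (Sdf2l1), 0.53 ± 0.32 (Manf), 0.64 ± 0.54 (Dnajb9), 0.45 ± 0.20 (Herpud1), 0.27 ± 0.61 (Sec61b), 0.43 ± 0.26 (Atf4), 0.25 ± 0.26 (Atf6), 1.84 ± 0.75 (Ern1) and -1.07 ± 2.63 (Ddit3). The plasma cell markers other than the 3 factors were positive in 8 of 8, with a median of 1.63, and their part was not tested. The 4 comparisons by factor share cells and are not independent of each other.

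Summed over the 35 members, a cell held a median of 7315 CPM (quartiles 5579 and 9394, range 63.9 to 36256) and a median of 17 members with a count (1 to 34). By the number of factors detected, the medians were 6537, 7758, 8599 and 15527 CPM in the 249, 328, 48 and 12 cells with 0, 1, 2 and 3 factors. The members with a count were 15, 19, 20 and 29.5. After thinning, the medians were 6669, 7812, 8308 and 15553 CPM. Thinning left out shallow cells and the factors were called again, so these medians rest on 227, 300, 38 and 8 cells. Cytosolic chaperones had medians of 5680, 6358, 7416 and 7227 CPM and the other ER genes 6437, 6962, 7775 and 12085. Xbp1-detected cells had a median sum of 8056 against 6534 CPM and the higher median in 7 of 8 hosts, V7 being the exception (6880 and 7069).

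The 12 cells with all 3 factors came from 5 hosts, 7 from acalabrutinib and 5 from vehicle hosts, with 5 in G1, 3 in S and 4 in G2/M. Of these, 8 lay above the median sum of all cells and 5 were among the 12 highest sums. The 12 ran from 1709 to 36256 CPM, and in 4 of them a factor had fewer than 10 counts. In the other 8, from 4 hosts, the median was 16725 and the lowest 6786 CPM. Sdc1 was found in 6 of the 12 and in 1 of the 249 cells with no factor (0.402%). Jchain was found in 11 of the 12, Pax5 in 6, Bcl6 in 5 and Tnfrsf17 in 0. Over all cells these 4 genes had counts in 91.2%, 95.4%, 86.5% and 1.10%, so Jchain does not set the 12 apart.

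Between the cells with 3 factors and those with none, 35 of 35 members had the larger share of cells with a count (median 75% against 43.4%, and 87.5% against 44.9% after thinning). The 3-factor cells also had more genes detected (medians 5306.5 and 3715), and of all 12432 genes as widely found as the least detected member, 68.6% had the larger share in them (63.8% after thinning). These genes were sparser than the members, with a median share of 20.5% in cells with no factor, beside 43.4%. The background is thus not matched to the members in detection. Pdia4 had counts in 83.3% against 18.1% of cells, with means of 847 and 77.9 CPM per cell. Dnajb9 had counts in 75% against 10.4%, and Hsp90b1 in 100% against 44.6%. Ern1 had counts in 50% against 21.7%. Ddit3 was found in 8.33% against 4.82%, at 0.111 and 6.93 CPM, and Syvn1, detected in nearly all cells, was at 457 and 551 CPM. The thinned shares rest on 8 cells with 3 factors and 227 with none. With 12 cells, or 8 after thinning, these shares are descriptions.

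**Figure D4:**
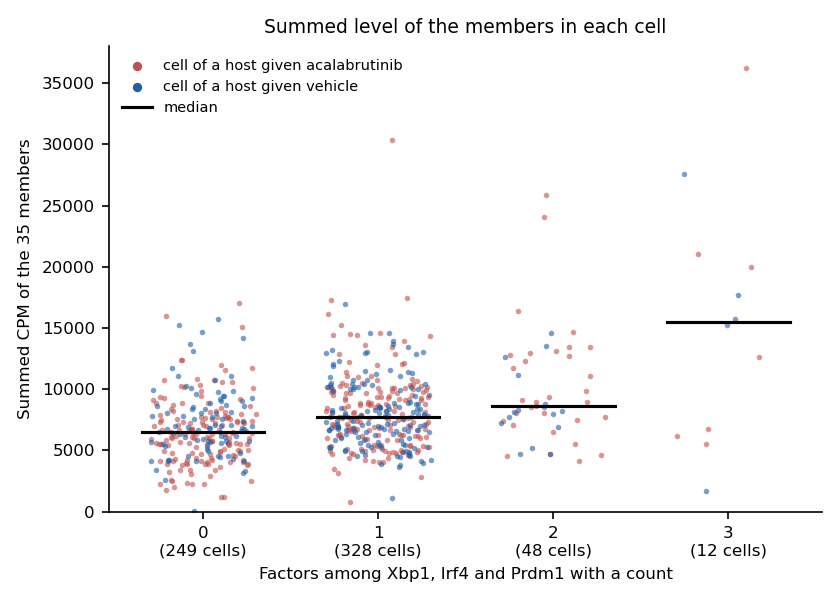
Summed CPM of the 35 members in each of the 637 cells, by the number of the factors Xbp1, Irf4 and Prdm1 with a count, with cells of acalabrutinib and vehicle hosts in separate colours and the median as a bar. The medians are 6537, 7758, 8599 and 15527 CPM, and the 12 cells with 3 factors spread from 1709 to 36256.

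Across the 637 cells, over the 595 pairs of members, the Spearman correlation of CPM per cell had a median of 0.0948 (-0.113 to 0.383), 11 pairs were over 0.3 and 66 below 0. The 231 pairs of cytosolic chaperones had a median of 0.157. All cells share the zeros and depth differences of single-cell libraries, so a weak correlation here is no finding. The closest pairs joined Hspa5 with Calr (0.383), Pdia3 (0.379), Hsp90b1 (0.373) and Manf (0.330), and Calr with Pdia6 (0.354).

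With the sum of the other members, Hspa5 stood at 0.51, Calr at 0.43, Pdia3 at 0.41, Hsp90b1 at 0.40, Manf at 0.39 and Pdia6 at 0.37, and 10 members were over 0.3 (8 after thinning). Syvn1 (-0.05) and Eif2ak3 (-0.03) were at or below 0. With Xbp1 the median member was at 0.114, and Pdia3 (0.249), Calr (0.22) and P4hb (0.21) were over 0.2, while Syvn1 was at -0.03 and Ern1 at -0.00. Within hosts the correlation with Xbp1 ran from 0.109 to 0.369 for Pdia3 (positive in 8 of 8), from -0.109 to 0.315 for Calr (7 of 8) and from -0.02 to 0.394 for P4hb (7 of 8). The sum of the members correlated with Xbp1 at 0.306, Irf4 at 0.115 and Prdm1 at 0.0985, beside 0.362 with the cytosolic chaperones, 0.384 with the other ER genes, 0.164 with depth and 0.204 with the genes detected. The 9 members with the ER stress response element (CCAAT, 9 bases and CCACG) had a median correlation with the other members of 0.30 (-0.05 to 0.51, 5 over 0.3). The 20 with a window but without this form had 0.172 (3 over 0.3), and Herpud1, which holds the second form, was counted among these 20. Syvn1, which holds the element, was the lowest of the 9.

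**Figure D5:**
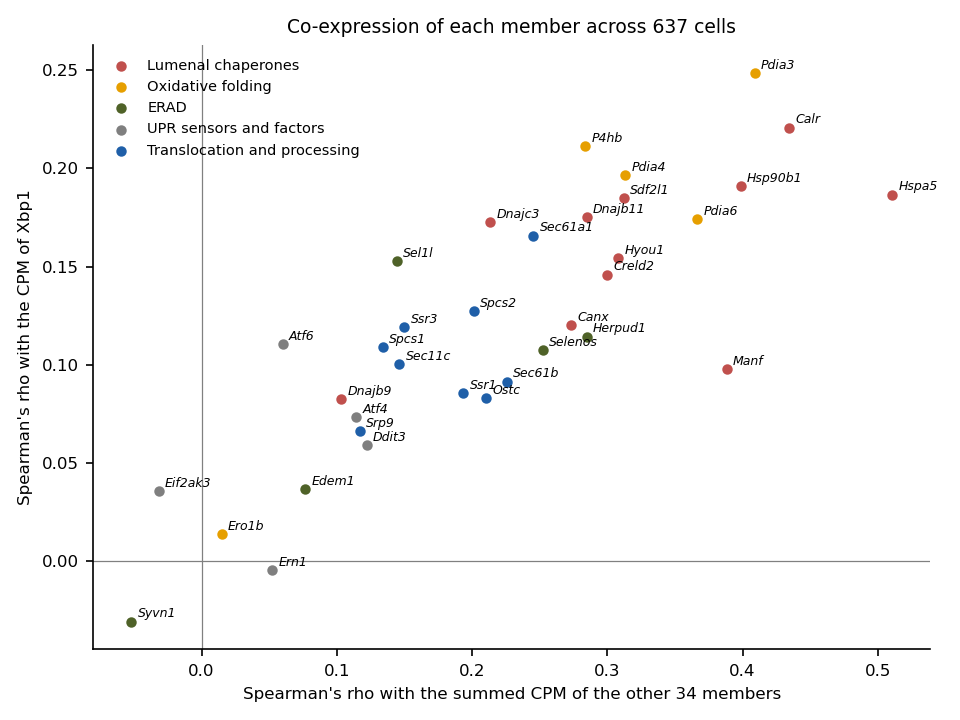
Spearman correlation over 637 cells of each member's CPM with the summed CPM of the other 34 members (horizontal axis) and with the CPM of Xbp1 (vertical axis), 1 point per member, coloured by role. Hspa5 is farthest right at 0.51, Pdia3 is highest at 0.249, and Syvn1 is the member below 0 on both axes.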

How the data were processed

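SMART-Seq2 libraries of single LZ cells were sequenced by the authors, and the deposited values are raw counts per gene and cell. Per the labels and the submitters' processing notes they came from STARsolo 2.7.10a with exact deduplication, and builds GRCm38 and GRCm39 are named. With no molecular identifiers, identical reads, not molecules, were collapsed. The Wilson interval treats cells as independent draws, so it covers counting error only and leaves out the spread between hosts. Host was read from the cell names and treatment from the labels. No cell was filtered here, and no 2 cells shared a name.

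Counts were summed per host, or per host and cell state with at least 5 cells in each state, and tested by edgeR 4.0.16 (TMM, filterByExpr, quasi-likelihood, host as a block between states of the same hosts, Benjamini-Hochberg over all genes tested) in R 4.3.3. Differences are log2. Their SE was worked back from edgeR's test, as the absolute log2 difference divided by the square root of the F statistic. Alternatives were DESeq2 1.42.0, limma 3.58.1 on log2(mean CPM + 1), no filter, no block, thinned cells, other state or detection calls and leaving out each host. States came from Seurat 5.3.0 scores, and detection was 1 count. Exon lengths came from GENCODE M21 (GRCm38), while the counts were made on GRCm39 with intron reads included, so levels per kb are approximate. Other steps used Python 3.11.15 with pandas 2.3.3 and SciPy 1.17.1. The edgeR test was run on simulated counts for the acalabrutinib and the cycling comparisons only, and the other steps were not tested in this way.

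All 35 members are accounted for, 14 of them (Hspa5, Hsp90b1, Calr, Pdia4, Pdia6, Sdf2l1, Manf, Dnajb9, Herpud1, Sec61b, Ddit3, Atf4, Ern1, Atf6) were given in every comparison, with Xbp1, Irf4 and Prdm1 where they were tested and did not define the groups, and further genes if they passed an adjusted p of 0.05. The windows, top pairs and genes called by DESeq2 were picked after their values were seen. The members and lists were chosen with earlier results of these data known. P-values use hosts as replicates.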

Additional observations from a re-analysis of the deposited data

Results flagged for a closer look

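Over 70 sets of 5 acalabrutinib hosts (the level and the share of cells with a count for each member), 4 (5.71%) had a host far from the other 4, and chance gives about 1 in 20. The share of cells with Canx was 62.9% in A8, beside 82.2 to 88.6% in the others. The level of Dnajb11 was 271 CPM in A11, beside 223 to 236. The shares of Pdia4 and P4hb in A11 were 38.6% and 77.2%, beside 20.2 to 25% and 50.6 to 57.8%. A8 and A11 also had the lowest and the highest median sum of the members per cell (5987 and 8350 CPM). With cells thinned to an equal depth they were still the lowest and the highest (6146 and 8403 CPM). The part of depth in the other values here was not tested.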

How the results depend on the processing

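The number of genes called turned on the tool. DESeq2 called 94 genes by treatment, 1976 by cycling, 727 between G2/M and S, 384 with Xbp1, 1444 with Irf4, 3340 with Prdm1, 815 with at least 2 factors and 408 in the interaction, and limma 746 by cycling, 96 between G2/M and S and 1 with Xbp1. Without the filter 297 were called by cycling, and leaving out a host gave 305 to 377 there and 27 (without V9) to 58 between G2/M and S. With no replicate block, G2/M against S gave 93 genes and no member was called lower by cycling (0, the same 0 as with limma, with Mki67 and Top2a as the cycling call, or without the filter), and leaving out a host gave 0 to 1. Members called by DESeq2 numbered 5 lower by cycling, 1 higher and 2 lower in G2/M, 2 higher with Xbp1, 2 higher and 1 lower with Irf4, 14 higher with Prdm1, 6 higher with at least 2 factors and 1 lower in the interaction. The causes were not tested.

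The members' median moved with Irf4 in G1 cells alone (0.0717), with at least 2 factors at 10 counts (0.63) or by limma (0.38), and with Prdm1 in S and G2/M cells (0.37), by DESeq2 (0.51), limma (0.27), without the block (0.43), without the filter (0.35) and thinned (0.45). Calr kept its call in 3 of 15 alternatives, with adjusted p of 4.16e-05 (DESeq2) to 0.373. A median counted as moved when it shifted by at least the spread, the SD over hosts of the members' median. With Prdm1 this SD came from 2 hosts with close values (0.325 in A11 and 0.341 in V9), so small shifts counted as moved. In the remaining settings, 91 medians moved by less than the spread. That by treatment, -0.01, had the other sign in G1 cells (0.0305) and by DESeq2 (0.00434), and the others kept theirs. With Prdm1, at 10 counts, in G1 cells or with a host left out, and with at least 2 factors in G1 cells, too few hosts remained for a fit. Counts for Ddit3, Ern1, Irf4 and Prdm1 limit what can be said of them.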
